A study of Mus musculus with 18 samples.

Results

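The regions described here are stretches of mouse chromatin that carried a called H3K27me3 peak in bone marrow-derived macrophages (BMDM) of WT mice and of dystrophin-deficient mdx mice, and none in BMDM of mdxTLR4-/- mice, which lack Toll-like receptor 4 in addition to dystrophin. Peaks of the 3 genotypes on chromosomes 1 to 19 were merged where they overlapped by at least 1 bp, and a merged region was kept when a WT peak and an mdx peak touched it and no mdxTLR4-/- peak did. This gave 2587 regions of 36072 merged regions (7.17%), or 13.2% of the 19592 regions touched by both WT and mdx. The other classes that 2 genotypes shared were 661 regions missing only in mdx and 3474 missing only in WT, and 17005 regions were touched by all 3 genotypes. The regions were selected on measured values, the presence and absence of called H3K27me3 peaks in these same 3 lists, so their H3K27me3 densities and the shares above are a description, with no test. Differences from other classes of regions are likewise given with no test.

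H3K27me3 is the trimethylated form of lysine 27 on histone H3, set by the Polycomb repressive complex PRC2 and found over genes that a cell keeps silent, often as broad domains around CpG-rich gene starts. H3K27ac is the acetylated form of the same residue and marks active promoters and enhancers, so a single histone tail can carry only one of them. In macrophages, inflammatory genes are among those that carry one or the other mark.

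The BMDM were untreated. The labels give WT cells from C57BL6 mice, mdx cells from mice with the Dmdmdx-4Cv allele, which removes dystrophin, and the group called mTLR4, taken here as mdxTLR4-/-, from mice labelled Bl6/Bl10, so the labelled strain differed between the groups. The mice were male, according to the methods. For H3K27me3 the listed ages were 12 to 13 weeks for WT, 14 to 15 for mdx and 16 to 17 for mdxTLR4-/-, and for H3K27ac they were 19 to 20, 21 to 22 and 23 weeks. Across all 18 libraries the listed ages ran from 6 to 23 weeks in steps of 1 week, each used once and in the order of the samples, so a listed age may not be the true age of the mice, and as listed, age and genotype cannot be told apart, nor age and mark. The cells had been grown from bone marrow in medium conditioned by L929 fibroblasts, so they stand for cultured macrophages and not for macrophages of dystrophic muscle. Each genotype had 2 H3K27me3 libraries. Their reads had been merged before peak calling, which left 1 list of peaks per genotype and mark. There was thus no replicate spread, no comparison between genotypes below has a test, and every interval covers counting error over regions only. A region without a listed peak had too few reads for a call, which is not the same as no H3K27me3.

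The 3 lists held 28024 WT, 41558 mdx and 36294 mdxTLR4-/- peaks on chromosomes 1 to 19, with 8315029, 10173431 and 7342998 reads inside them. The depth of the libraries is unknown, since reads outside peaks were not listed. As a check of the cell type, H3K27ac peaks lay at the starts of 12 of 15 macrophage markers in WT, 13 in mdx and 12 in mdxTLR4-/-, and at 1 of 21 markers of other cell types (Pecam1) in each genotype. The Tlr4 gene itself, chr4:66827584-66930284, had no H3K27me3 peak of any genotype in the gene body or its flanks, so these lists do not check its deletion.

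The DNA of 8 of these regions is shown because it carries the contrast between them: 6 were among the densest over the start of a protein-coding gene, 1 held the most reads, and 1 had an H3K27ac peak in mdxTLR4-/- alone. Each line gives the 200 bases of the region with the most CpG, on the plus strand of GRCm38 (mm10) from RefSeq, with CpG in capitals.
Npy5r, chr8:66687933-66688132: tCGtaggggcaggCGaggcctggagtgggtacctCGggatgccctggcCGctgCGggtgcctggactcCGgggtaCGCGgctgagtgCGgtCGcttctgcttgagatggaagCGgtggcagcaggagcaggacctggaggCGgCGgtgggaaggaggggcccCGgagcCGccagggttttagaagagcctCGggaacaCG
Irgc1, chr7:24452112-24452311: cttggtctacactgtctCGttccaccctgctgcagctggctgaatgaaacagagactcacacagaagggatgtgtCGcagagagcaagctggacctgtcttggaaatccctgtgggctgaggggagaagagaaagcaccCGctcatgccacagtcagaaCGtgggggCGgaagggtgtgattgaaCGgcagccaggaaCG
Sybu, chr15:44787667-44787866: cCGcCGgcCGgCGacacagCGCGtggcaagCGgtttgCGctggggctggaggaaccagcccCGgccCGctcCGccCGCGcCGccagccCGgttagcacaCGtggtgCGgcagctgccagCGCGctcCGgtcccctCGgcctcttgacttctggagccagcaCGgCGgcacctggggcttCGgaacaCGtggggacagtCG
Col4a4 and Col4a3, chr1:82586653-82586852: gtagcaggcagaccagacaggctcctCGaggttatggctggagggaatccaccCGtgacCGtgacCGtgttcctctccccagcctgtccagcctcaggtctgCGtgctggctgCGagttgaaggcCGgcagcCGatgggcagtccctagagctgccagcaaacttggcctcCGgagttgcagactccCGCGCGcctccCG
Ltb, chr17:35193924-35194123: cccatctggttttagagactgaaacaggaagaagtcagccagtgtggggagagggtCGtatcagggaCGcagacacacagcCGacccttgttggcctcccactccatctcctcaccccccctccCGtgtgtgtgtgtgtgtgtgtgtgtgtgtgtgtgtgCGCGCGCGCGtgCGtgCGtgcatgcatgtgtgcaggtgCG
Cdh24, chr14:54641128-54641327: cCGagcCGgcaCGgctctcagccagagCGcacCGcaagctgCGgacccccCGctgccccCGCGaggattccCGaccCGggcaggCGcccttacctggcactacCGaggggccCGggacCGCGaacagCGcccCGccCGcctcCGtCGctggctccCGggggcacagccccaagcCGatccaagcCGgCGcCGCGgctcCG
Megf6, chr4:154229333-154229532: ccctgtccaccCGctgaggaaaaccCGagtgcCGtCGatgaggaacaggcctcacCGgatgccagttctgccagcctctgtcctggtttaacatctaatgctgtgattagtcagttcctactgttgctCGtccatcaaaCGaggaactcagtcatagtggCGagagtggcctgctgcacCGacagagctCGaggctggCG
region near Smad3, chr9:63788359-63788558: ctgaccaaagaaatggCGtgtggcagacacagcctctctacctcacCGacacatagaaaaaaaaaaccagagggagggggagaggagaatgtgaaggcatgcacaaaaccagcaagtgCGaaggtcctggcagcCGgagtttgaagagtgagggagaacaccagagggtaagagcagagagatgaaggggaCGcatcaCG

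The Cdh24 window held 28 CpG and the Sybu window 26, with 78% and 74.5% G and C. The Irgc1 window held 7 CpG and the window near Smad3 held 6, so CpG content varied widely among the regions shown. In the Ltb window part of the CpG fell in a simple run of alternating bases. Over all regions missing only in mdxTLR4-/-, the densest 200 bases held a median of 7 CpG, and 552 of the 2587 (21.3%, 95% Wilson interval 19.8 to 23.0) had at least 10 CpG in some 200 bp, against 31.4% of all merged regions. Among regions of all 3 genotypes the share was 51.2%, and it was 18.0% in regions missing only in mdx and 18.6% in regions missing only in WT. The median GC content was 46.1% and the median density 10.2 CpG per kb, against 46.7% and 11.6 in regions of all 3 genotypes. Repeats filled a median of 22.3% of a region's bases, close to the 22.9% in regions of all 3.

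The regions were shorter and sparser than those of all 3 genotypes. Their median length was 4600 bp (95% interval of the median 4400 to 4600, range 400 to 25400), against 9200 bp for regions of all 3 genotypes and 4600 bp over all merged regions, and together they covered 12.9 Mb. The median density, counted as reads per kb of peak, was 20.3 in WT and 25 in mdx, against 25.6 and 31.2 in regions of all 3. A median region held 77 WT reads and 69 mdx reads. The lower of the 2 densities was under 25 reads per kb in 2278 regions and reached 30 in 41 and 40 in 3. These were values used by the rule and serve to describe the set. Length was that of the merged region, which in regions of all 3 genotypes can be extended by the mdxTLR4-/- peak.

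**Figure D1:**
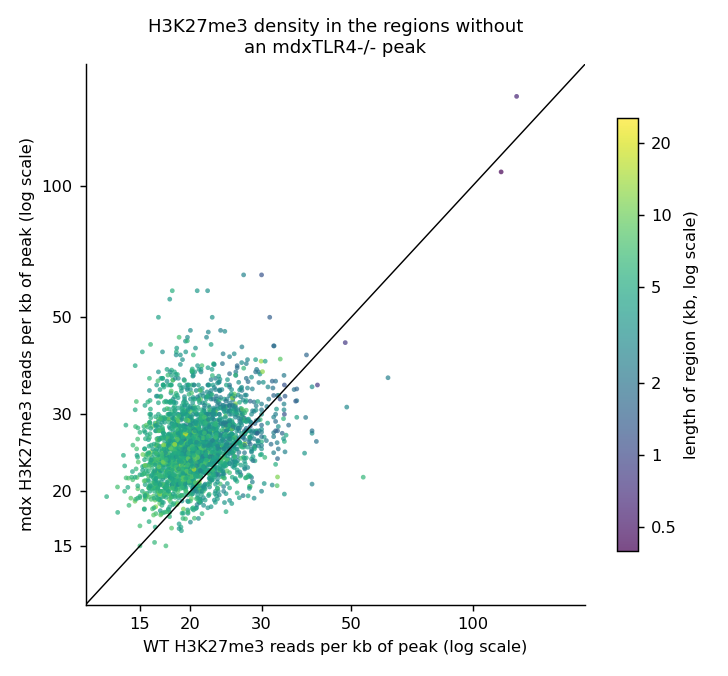
WT density (x axis) against mdx density (y axis) in each of the 2587 regions missing only in mdxTLR4-/-, in reads per kb of peak on log scales, with the colour showing the length of the region in kb and the line marking equal density. Of the regions, 2206 lie above the line, and the point farthest to the upper right is the region in Kctd16 (128 WT and 160 mdx reads per kb).

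The densest regions were very short. In an intron of Kctd16, which encodes an auxiliary subunit of GABA-B receptors, a region of 600 bp (chr18:40307801-40308400) held 77 WT reads and 64 mdx reads, or 128 and 160 reads per kb. The WT peak filled the region, and the mdx peak covered only chr18:40308001-40308400. The mdxTLR4-/- list held 302 peaks of 600 bp, with at least 19 reads each, and 175 peaks of 400 bp, with at least 18. The WT and mdx counts are those that selected the region and were not scaled for depth, so this is no test of detection. The nearest mdxTLR4-/- peak was 48.8 kb from the Kctd16 region. Another dense region, of 800 bp, lay 29.5 kb from Chst11, with 29 WT and 35 mdx reads. The sparsest regions lay near Ccdc6 (12.4 WT and 19.4 mdx reads per kb), in an exon of Igf2bp3 (13.2 and 20.5) and near Iqsec3 (13.2 and 17.9).

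WT and mdx peaks did not have the same extent. The WT peaks of a region were longer in 1811 regions, the mdx peaks in 642, and they were equal in 134. A median of 54.0% of their joint length lay under both, and 92.3% of the mdx peak length lay under a WT peak. A region held 2 or more mdx peaks in 245 cases and 2 or more WT peaks in 41. The mdx density exceeded the WT density in 2206 of 2587 regions (85.3%, interval 83.9 to 86.6), against 90.1% of all regions of WT and mdx, and the median ratio of mdx to WT was 1.22 here and 1.22 in regions of all 3 genotypes. This direction depended on scale: with densities divided by the reads in each list's peaks, 49.0% of the regions missing only in mdxTLR4-/- were denser in mdx and 48.4% of regions of all 3 were. A density at least 1.5 times higher in mdx was found in 370 regions (14.3%, against 8.97% of all regions of WT and mdx), and one at least 1.5 times higher in WT in 11 (0.425%, against 0.204%), both without scaling.

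The share of WT and mdx regions that lacked an mdxTLR4-/- peak fell with length. It was 38.7% (74 of 191 regions) up to 2 kb, 34.7% from 2 to 4 kb, 24.8% from 4 to 6 kb, 13.4% from 6 to 8 kb, 5.15% from 8 to 12 kb and 0.385% (24 of 6238) over 12 kb. By the lower density of WT and mdx it went from 41.8% among the sparsest 10% of regions to 0.153% among the densest 10%, where 3 of 1960 lacked a peak. In the other 2 classes the share fell as well, from 81.4% to 0.177% with length for regions missing only in WT and from 17.0% to 0.0643% for those missing only in mdx. Length was that of the merged region, so a peak of the third genotype can itself lengthen the regions it touches. A longer region also has more room to touch such a peak. A fall with length is thus partly built into the rule, and how much was not tested.

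**Figure D2:**
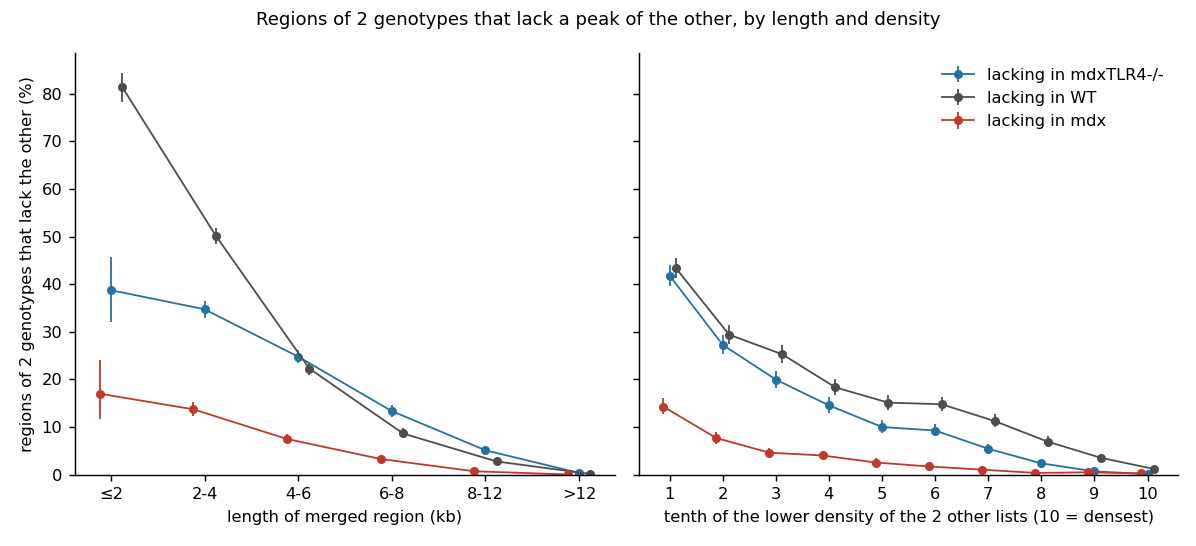
Share of regions of 2 genotypes that had no peak of the other (y axis, percent, bars are 95% Wilson intervals), by length of the merged region in kb (left) and by the lower density of the 2 genotypes in 10 classes of like size (right). For mdxTLR4-/- the share falls from 38.7% to 0.385% with length and from 41.8% to 0.153% with density, and the WT and mdx lines fall as well. The merged length includes any peak of the third genotype, so a fall with length is partly built in.

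Set beside the mdxTLR4-/- list, many of the regions had WT and mdx densities within the range of called mdxTLR4-/- peaks. In regions of all 3 genotypes the median ratio of mdxTLR4-/- to WT density was 0.959 and that of mdxTLR4-/- to mdx density was 0.790. With WT and mdx densities multiplied by these ratios, both reached the 5th percentile of mdxTLR4-/- peaks of the same length class in 2036 regions (78.7%, against 84.3% of regions of all 3) and the median in 365 (14.1%, against 29.6%). Within length classes the gap was wider for longer regions. The share over the 5th percentile was 98.3% for regions of 2 to 4 kb, against 99.5% of regions of all 3. From 6 to 8 kb it was 50.25%, against 87.1%, and over 12 kb it was 12.5%, against 76.0%. The 3 of the 24 regions over 12 kb that reached it were those at Lamb2, Gm11127 and Gm11725. Length classes were those of the merged region, while densities were taken over its WT or mdx peaks.

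Some regions lay close to the rule's border. In 24 regions the nearest mdxTLR4-/- peak began at the next base, and in 150 (5.80%) it was within 600 bp, the gap over which the peak caller joins windows. These 150 regions had median densities of 20.5 in WT and 25 in mdx. Just outside the rule, 31 regions of all 3 genotypes had under 10% of their length under mdxTLR4-/- peaks, with medians of 20.3 and 26.3 reads per kb in WT and mdx. An mdxTLR4-/- peak lay within 5 kb of 1290 regions (49.9%, interval 47.9 to 51.8), on both sides in 321 (12.4%), and the median gap was 5200 bp. For regions missing only in mdx, an mdx peak lay within 5 kb of 62.6%, and for those missing only in WT a WT peak did so for 49.0%.

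Most of the regions lay away from gene starts. A start of an annotated gene lay in 284 (11.0%, interval 9.83 to 12.2), against 21.5% of all merged regions and 37.0% of regions of all 3 genotypes, and 106 (4.10%) held a protein-coding start, against 13.3% of all. The share over a gene start was 9.08% in regions missing only in mdx and 10.6% in those missing only in WT. A further 587 regions touched an exon, 578 lay in introns and 1138 (44.0%) lay outside annotated genes. Regions over a gene start had a median length of 4800 bp and 20.7 WT reads per kb, while regions of all 3 over a start had 14000 bp and 31.2. Outside genes the difference was smaller, with 4400 bp and 20.3 here against 7400 bp and 23.6.

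**Figure D3:**
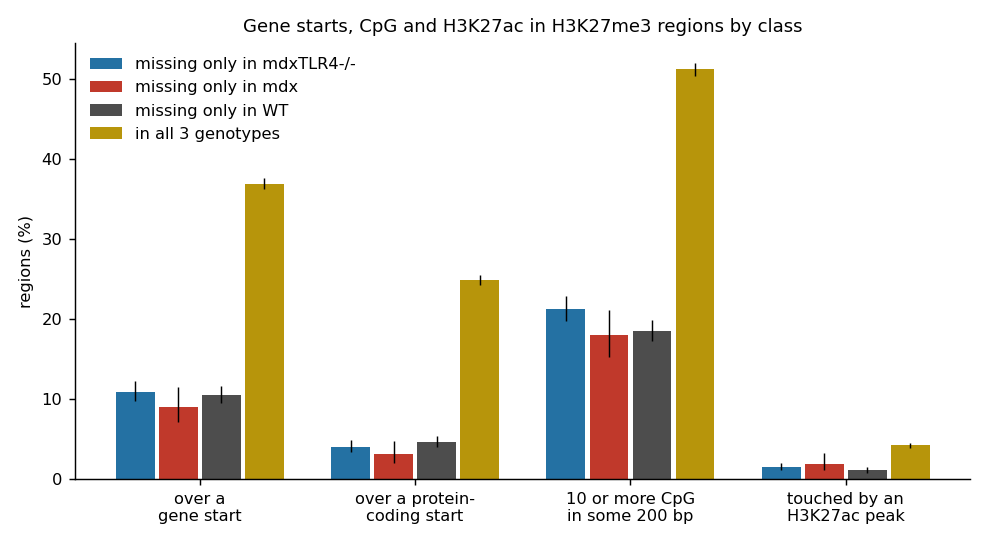
Share of regions (y axis, percent, bars from 0 with 95% Wilson intervals) over a gene start, over a protein-coding gene start, with at least 10 CpG in some 200 bp and touched by an H3K27ac peak of any genotype, for regions missing only in mdxTLR4-/-, only in mdx, only in WT and present in all 3. The 3 classes with a missing genotype have gene start shares between 9.08% and 11.0%, and the regions of all 3 have 37.0%.

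The cytokine genes Ltb, Tnf and Lta lie side by side on chromosome 17, and both H3K27me3 regions of this cluster were missing in mdxTLR4-/-. Tnf encodes tumor necrosis factor, an early inflammatory cytokine of macrophages, and Ltb and Lta encode the lymphotoxins beta and alpha. The region over the start of Ltb (chr17:35193801-35195400) held 51 WT reads and 50 mdx reads, or 31.9 and 35.7 reads per kb. The region over the start of Lta (chr17:35203201-35206600) held 60 and 85 reads, or 25 and 28.3 reads per kb, and lay 1.19 kb from the start of Tnf, inside the 5 kb before it. Scaled as above, both exceeded the 5th percentile of mdxTLR4-/- peaks in the length class of the merged region. These densities come from the peaks that selected the regions, so this is a description and not a test of detection. The nearest mdxTLR4-/- peaks were 68.4 kb and 57.2 kb away, so the cluster lay far from any H3K27me3 peak of that genotype.

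Tnf itself, chr17:35199381-35202007 on the minus strand, carried H3K27ac instead in WT and mdx. A peak of 12 reads in WT (chr17:35200201-35202400) covered the start of the gene, a peak of 9 reads in mdx (chr17:35200201-35202000) covered part of the body and ended just inside the start, and mdxTLR4-/- had no H3K27ac peak there. From Ltb to Lta, WT and mdx thus had peaks of both marks and mdxTLR4-/- of neither. The H3K27ac counts were low, with a smallest peak of 5 reads in each list, and mdxTLR4-/- had H3K27ac peaks of 6 reads on the Ltb side and 18 reads on the Lta side of the cluster. The gene window was taken as the gene with 5 kb before and 1 kb after it. Of 8 marker genes of macrophage activation assayed by qPCR in the same work, Tnf was the one with such a region in its window. The paper also measured H3K27me3 at promoters of its marker genes by qPCR of the precipitated chromatin. It reported relatively higher levels in mdxTLR4-/- than in mdx, a direction unlike that of the missing peaks here. Its text gives no value for Tnf alone. The places differ too, as no H3K27me3 peak of any genotype covered the start of Tnf. From the ChIP-seq the paper reported, near genes across the genome, less H3K27me3 in mdx than in WT and more in mdxTLR4-/-. That signal was taken relative to input, while the counts here are raw and the regions were chosen for lacking an mdxTLR4-/- peak. Nos2 and Il12a, which encode the inducible nitric oxide synthase and a subunit of interleukin 12, had H3K27me3 in all 3 genotypes. Peaks covered 80.9%, 77.0% and 82.3% of the Nos2 window in WT, mdx and mdxTLR4-/-. For the Il12a window the values were 28.8%, 50.04% and 25.9%, highest in mdx. At both genes the paper reported weaker H3K27me3 peaks in mdx than in WT and mdxTLR4-/-. That was peak intensity, while the values here are the share of the window under called peaks. Il6, Tgfb1, Mrc1, Chil3 and Arg1 had no H3K27me3 peak in the window.

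**Figure D4:**
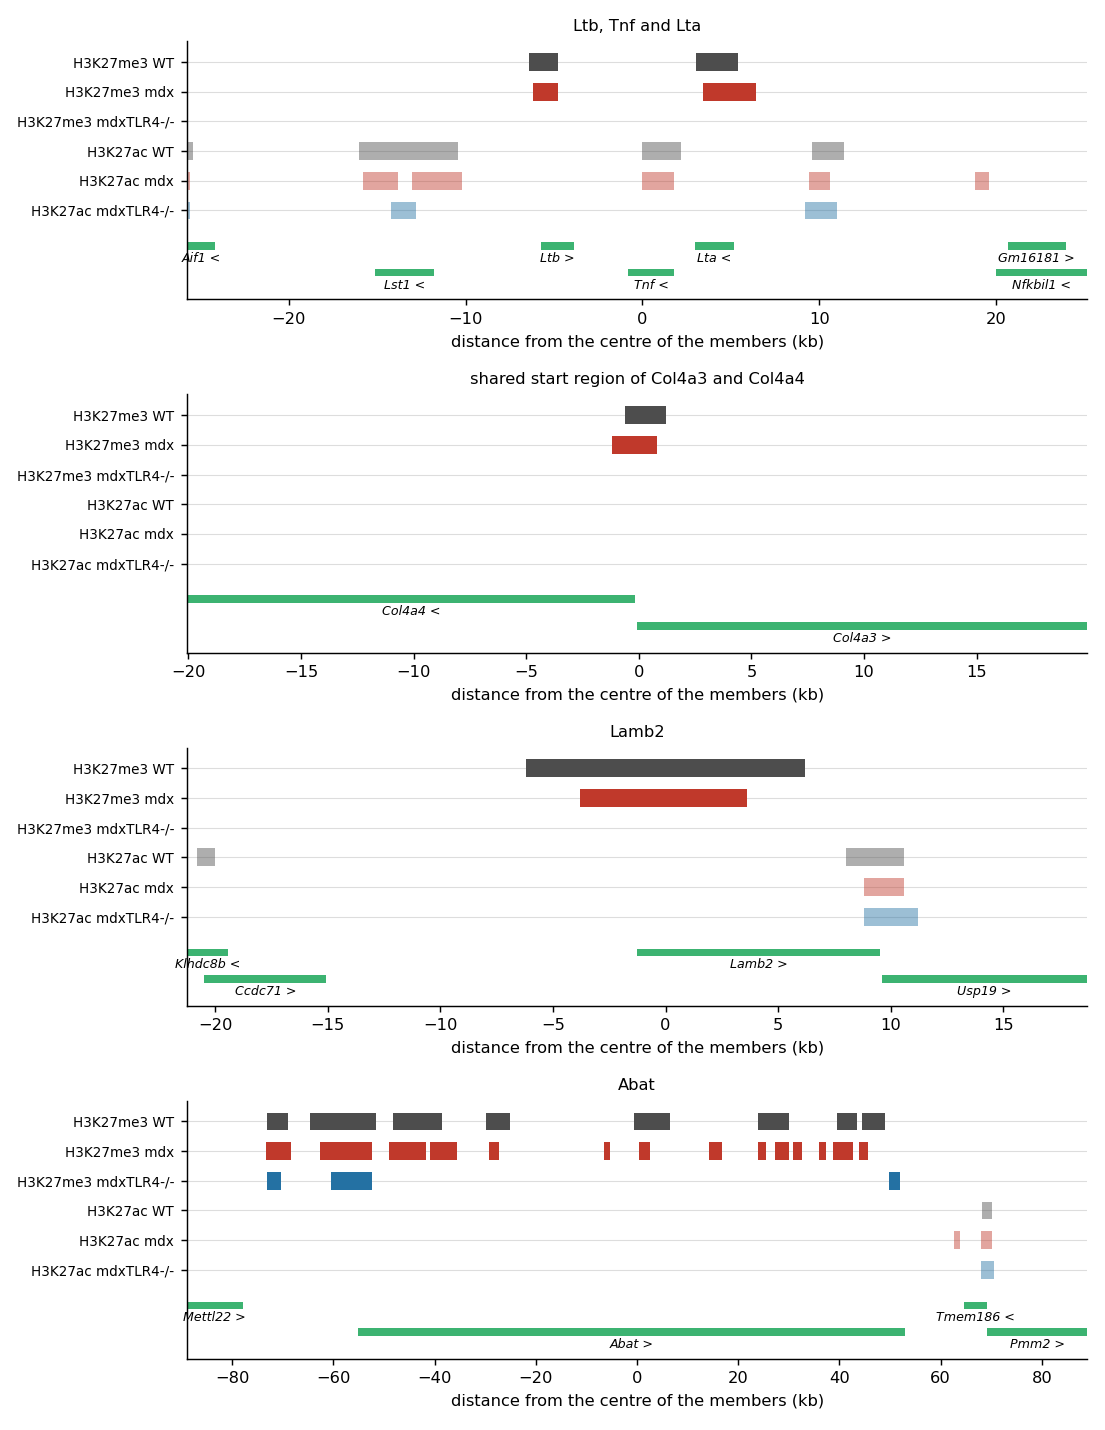
Called peaks of H3K27me3 (full colour) and H3K27ac (pale) in WT, mdx and mdxTLR4-/- at 4 loci, by distance in kb from the centre of the missing regions, with protein-coding genes in green and their direction as > or <. At Ltb, Tnf and Lta, at the start region of Col4a3 and Col4a4 and at Lamb2 the H3K27me3 row of mdxTLR4-/- is empty, and over Abat it holds peaks only beyond both ends of the 6 regions.

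Other starts with dense peaks belonged to genes with unlike roles. The region over the start of Npy5r (chr8:66687401-66689000), a receptor for neuropeptide Y, held 62 WT reads and 41 mdx reads, or 38.8 and 41.0 per kb, while the H3K27me3 peak at the start of the adjoining Npy1r was called in all genotypes, with counts of 51 for WT, 72 for mdx and 52 for mdxTLR4-/-. The region over Sybu, which encodes an adaptor of kinesin transport, held 75 and 81 reads (chr15:44786601-44788800). Over Cdh24, which encodes a cadherin, there were 98 and 119 reads (chr14:54638201-54642400), and over Irgc1, of the immunity-related GTPases, 37 and 80 reads (chr7:24451601-24454000). In the last 2 regions the WT and mdx peaks overlapped only in part, and the start of Cdh24 lay under the WT peak alone and that of Irgc1 under the mdx peak alone. Slc38a11, a predicted amino acid transporter, had 45 and 53 reads (chr2:65363601-65365200). Gm11127, a predicted gene of the major histocompatibility complex with similar copies that could share its reads, had 368 WT and 368 mdx reads over 12200 bp (chr17:36057601-36069800). No H3K27ac peak of any genotype touched these regions.

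Genes of the extracellular matrix were among those with a region in the window. The opposed starts of Col4a3 and Col4a4, which encode chains of basement membrane collagen, shared one region of 2400 bp (chr1:82585801-82588200) with 58 WT and 86 mdx reads, 128.6 kb from the nearest mdxTLR4-/- peak. Lamb2, which encodes the beta 2 chain of laminin, had a region of 12400 bp (chr9:108474801-108487200) with 315 WT and 242 mdx reads, which spanned its start and touched 24 exon blocks. WT peaks covered 73.8% of the Lamb2 window, mdx peaks 44.1% and mdxTLR4-/- peaks 0%. In Col11a2 and Col6a3 the regions lay inside the gene, and mdxTLR4-/- peaks remained over 16.8% and 23.8% of the window, against 48.1% and 55.9% in WT and 39.1% and 35.2% in mdx.

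Of all annotated genes, 3.37% had one of the regions in the window and 0.636% had one over the start. For protein-coding genes, 1057 of 20807 windows (5.08%) and 110 starts (0.529%) held one, and 243 of the windows had no mdxTLR4-/- peak. The share rose with the length of the window, from 1.74% up to 10 kb to 20.1% over 200 kb. Among collagens it was 9 of 42 (21.4%, interval 11.7 to 35.9), with a median window of 117 kb, and windows of 100 to 200 kb had 12.4%. It was 10 of 59 (16.9%, 9.48 to 28.5) in the list of pro-fibrotic genes provided with the paper, of which Col6a3, Fgfr1 and Col6a2 had the largest share of their window under such regions, between 9.45% and 12.1%. For the TNF superfamily and its receptors it was 4 of 39 (10.3%, 4.06 to 23.6), which were Lta, Tnf, Ltb and Tnfsf4. Lta and Tnf were counted through the same region, and Ltb lies beside them, so these counts are not independent. These lists and those below differ from all genes in window length and in how much of the window carries H3K27me3. Of the 7912 protein-coding genes with WT and mdx peaks in the window, 1033 (13.1%) held a region. WT peaks covered on average 42.5% of the window in collagens and 18.4% in all protein-coding genes. The part of window length and of H3K27me3 cover in the shares was not tested.

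**Figure D5:**
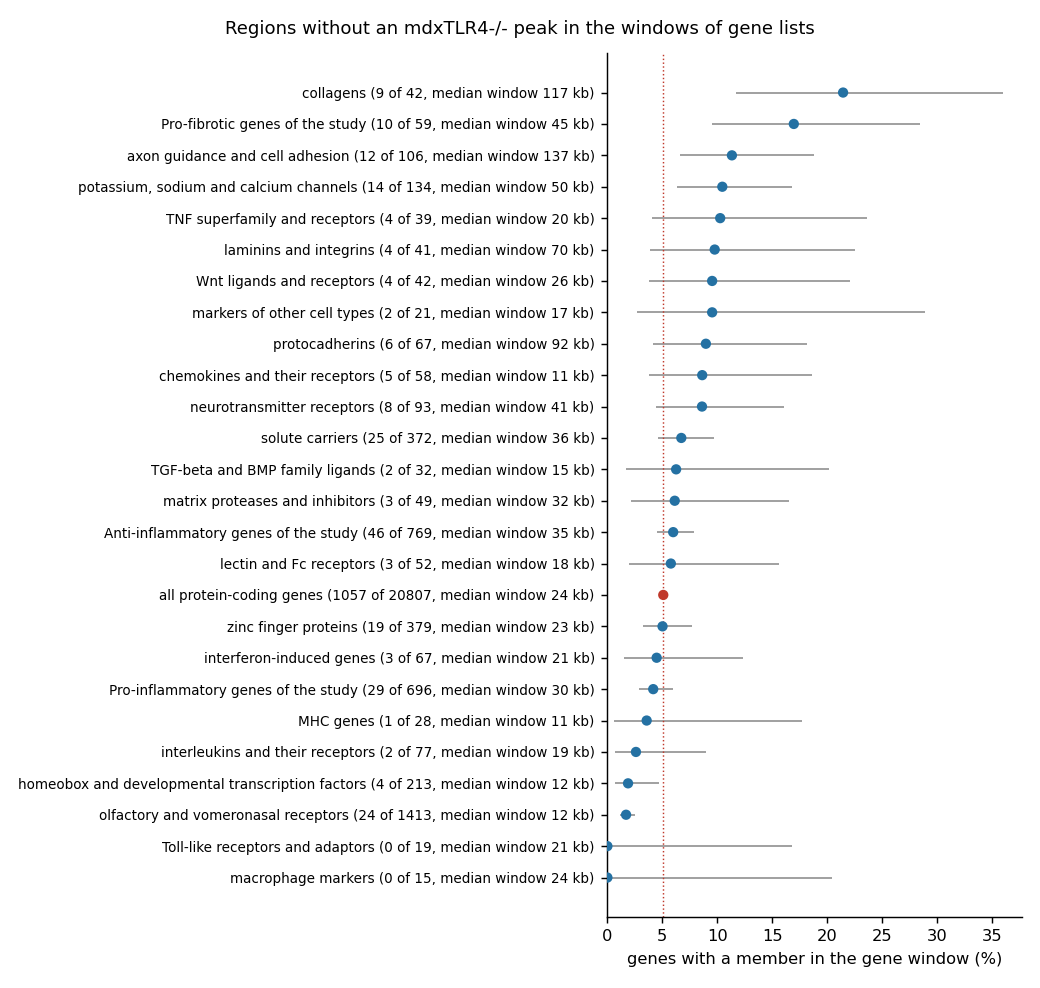
Share of genes with a region missing only in mdxTLR4-/- in the window (x axis, percent, bars are 95% Wilson intervals), for each list of at least 10 genes found, with counts and the median window beside the name. The red point and dotted line are all protein-coding genes at 5.08%, collagens lie highest at 21.4%, and Toll-like receptors and macrophage markers lie at 0.

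The paper's pro-inflammatory and anti-inflammatory lists lay near the 5.08% of all protein-coding genes. They lay below the 13.1% of protein-coding genes with WT and mdx peaks in the window. WT peaks covered on average 10.1% and 11.8% of the windows of these lists, against 18.4% for all protein-coding genes. Of the pro-inflammatory genes on the paper's list, 29 of 696 held one (4.17%, interval 2.92 to 5.92), and of the anti-inflammatory genes 46 of 769 (5.98%, 4.51 to 7.89). In the first, Tnf led with 39.4% of its window under such regions, followed by Tuba4a, an alpha tubulin, with 37.8% and Nfkb2, which encodes an NF-kB subunit, with 13.4%. In the second, Cish, an inhibitor of cytokine signalling, had 51.7% and no mdxTLR4-/- peak, with 59 WT and 45 mdx reads in the region before its start and 77 and 55 in the region over its body. Rab4a, a GTPase of endosome recycling, had 332 WT reads and 56 mdx reads in the region of 6200 bp that holds its start, or 53.5 and 21.5 reads per kb. Whether the mdx peak covers the start was not examined. A second region within the gene held 368 and 69 reads. Crip1 followed with 19.2%.

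Chemokines and their receptors had 5 of 58 (8.62%). The region over the start of Ccr8, a receptor of regulatory and type 2 helper T cells (chr9:120090601-120096600), held 99 and 128 reads, with an mdxTLR4-/- peak 1.2 kb away. The start itself lay under the mdx peak alone. Smaller parts of the windows of Cx3cl1 (20.7%) and Cxcr5 (9.63%) were covered. Interleukins and their receptors had 2 of 77 (2.60%), Il2ra and Il16. Interferon-induced genes had 3 of 67 (4.48%), the guanylate-binding proteins Gbp4, Gbp9 and Gbp8, which overlap in part and share regions. MHC genes had 1 of 28 (H2-Eb1), lectin and Fc receptors 3 of 52 (Siglech, Clec18a and Clec16a), and Toll-like receptors with their adaptors 0 of 19. Peaks of mdxTLR4-/- covered more of the Clec18a window (47.1%) and the Il2ra window (19.9%) than mdx peaks did (40.5% and 16.3%). In Siglech they covered less, 3.58% against 15.5%. Macrophage markers had 0 of 15, and markers of other cell types 2 of 21, Siglech and Pax5.

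Homeobox and other developmental transcription factors, the classical targets of Polycomb, had 4 of 213 (1.88%, interval 0.733 to 4.73), with none over a gene start. Their median window was 12.2 kb, and all protein-coding genes with windows of 10 to 20 kb had 2.33%. Only 35.0% of the windows of that length held WT and mdx peaks. Among protein-coding genes of any length with WT and mdx peaks in the window, 13.1% held a region. The 1.88% was thus close to the share for that length and well below the share of genes with such peaks. H3K27me3 covered on average 78.1% of their windows in WT, 78.2% in mdx and 76.2% in mdxTLR4-/-. Within Pax7, Pax5 and Barx2 the regions filled 9.95%, 6.57% and 5.72% of the window. Wnt genes had 4 of 42 (Sfrp4, Wif1 and Wnt5b first), TGF-beta and BMP ligands 2 of 32 (Bmp2 and Gdf6), matrix proteases 3 of 49 (Mmp1b, Mmp28 and Adamts17) and laminins and integrins 4 of 41 (Lamb2, Itgax and Lama3 first).

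Lists of neuronal genes have long windows, and of all protein-coding genes 3.91% held a region with windows of 20 to 50 kb, 7.87% with 50 to 100 kb and 12.4% with 100 to 200 kb. The median window was 49.98 kb for ion channels, 40.8 kb for neurotransmitter receptors, 136.8 kb for axon guidance and adhesion genes and 92.1 kb for protocadherins. Ion channels had 14 of 134 (10.4%), led by Kcng3, Cacng3 and Kcnip2, with 0 over a gene start. The counts were, for neurotransmitter receptors, 8 of 93 (8.60%), led by Htr5a, Gabrp and Grik5, for axon guidance and adhesion genes 12 of 106 (11.3%), led by Cdh24, Robo3 and Robo4, and for protocadherins 6 of 67 (8.96%), led by Pcdh18. Pcdh18 had 59 WT and 60 mdx reads over its start, in a region of 42.5 CpG per kb with the nearest mdxTLR4-/- peak 1149 kb away. The windows of Pcdh18, Gabrp and Cdh24 had no mdxTLR4-/- peak, but other windows kept such peaks. They covered 71.4% of the Robo3 window, against 64.7% for mdx, and 51.9% of the Grik5 window, against 56.9% for mdx. Solute carriers had 25 of 372 (6.72%), led by Slc25a41, Slc6a9 and Slc15a2, and zinc finger proteins 19 of 379 (5.01%), led by Zfp9, Zfp54 and Zfp957.

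Olfactory and vomeronasal receptors had 24 of 1413 (1.70%), and 13 of the 24 had no mdxTLR4-/- peak in the window. Olfr314 had 2 regions that filled 79.3% of its window, Olfr1358 had 63.5% and Olfr1513 61.1%. These receptors form large families of similar genes, and how reads that match several copies were placed was left at the aligner's default. In 29 protein-coding genes such regions filled at least 50% of the window. Beyond the genes above, and chosen after their values were seen, these included Rnase13 (100%), the bradykinin receptor gene Bdkrb1 (98.6%), the tight junction gene Cldn19 (67.5%) and the B cell receptor gene Cd79b (62.2%).

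The longest region (chr4:154211801-154237200, 25400 bp) covered exons of Megf6 and held 476 WT and 658 mdx reads, the most of any, with mdxTLR4-/- peaks 20.8 kb and 18.4 kb away on its sides. Next came a region of 21000 bp in exons of Mpped1 and Efcab6 (350 and 335 reads), one of 19800 bp lying 58.1 kb from Grik3 (377 and 429 reads), one of 18200 bp over Sytl1 (365 and 311 reads) and one of 16000 bp lying 61.9 kb from Cdc5l (298 and 211 reads). The start of Sytl1 lay under the WT peak alone. A region of 13000 bp over Gm11725 held 383 and 365 reads.

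The regions were spread over all chromosomes. The share of WT and mdx regions that lacked an mdxTLR4-/- peak ran from 11.6% on chromosome 4 (135 of 1167, interval 9.86 to 13.5) to 15.4% on chromosome 18 (90 of 586, 12.7 to 18.5), intervals that overlap. Within 10 Mb of Tlr4 on either side, it was 14 of 88 (15.9%, interval 9.72 to 25). In the order of WT and mdx regions along a chromosome, 806 of the 2587 (31.2%) followed one another in runs of 2 or more. As 13.2% of all WT and mdx regions lacked an mdxTLR4-/- peak, some runs arise without clustering, and clustering was not tested. The longest run, named after its values were seen, was 6 regions in 98.0 kb over Abat (chr16:8519601-8617600), which encodes the transaminase that breaks down GABA. From its first to its last region WT held 182, 76, 133, 106, 82 and 96 reads and mdx 290, 50, 50, 121, 98 and 56. The start region of Abat, by contrast, had H3K27me3 in all 3 genotypes with 406, 449 and 312 reads.

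H3K27ac, measured with another antibody, seldom touched these regions in any genotype. A peak of WT touched 16 of them (0.618%, against 1.29% of all merged regions), a peak of mdx 16 (0.618%, against 1.03%) and a peak of mdxTLR4-/- 15 (0.580%, interval 0.352 to 0.954, against 1.00%). The mdxTLR4-/- share was thus no higher than those of WT and mdx in the places where its H3K27me3 peak was missing. In regions of all 3 genotypes the shares were 2.13%, 1.68% and 1.59%. No H3K27ac peak of any genotype touched 2547 of the regions, a peak of WT alone touched 13 (0.503%), of mdx alone 12 (0.464%) and of mdxTLR4-/- alone 10 (0.387%). Over all merged regions these shares were 0.857%, 0.676% and 0.635%. Those 10 peaks were small. The 5 at the densest regions had 7 reads near Smad3 (chr9:63787401-63793400, 134 WT and 104 mdx H3K27me3 reads), 5 at Gm7964 before Il16, 5 near Pi4k2b, 6 in Tmem8b and 5 near Zfp518b, while the median H3K27ac peak of WT had 11 reads, that of mdx 10 and that of mdxTLR4-/- 8. The mdxTLR4-/- H3K27ac list came from 1 library and those of WT and mdx from 2 each, and the part of this difference in these counts was not tested.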

How the data were processed

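The series measured H3K27me3 and H3K27ac by ChIP-seq of native, MNase-digested chromatin from BMDM, with 18 libraries in all, input included. Per the submitters' processing notes and the study's methods, reads were demultiplexed with CASAVA 1.8, trimmed with cutadapt 1.15, mapped to mm10 with Bowtie2 2.3.4 at default settings, and merged over the replicates of a genotype, and peaks were called with SICER 2.0 against input (windows of 200 bp, gaps of 600 bp, FDR 0.01). The authors deposited 1 list per mark and genotype, giving for every peak its coordinates and its raw read count, unscaled. The 6 lists were used, and signal tracks were not used here.

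Peaks on chromosomes 1 to 19 were read with inclusive ends and merged, and regions were assigned by the genotypes that touched them. Density is reads per kb of peak length. Genes came from GENCODE vM21 on GRCm38.p6, with 51229 genes, and sequence from RefSeq's copy of that assembly. Chromosome lengths were checked against the peaks. The gene window reached from 5 kb before to 1 kb after the gene. Shares have 95% Wilson intervals, and intervals of medians come from order statistics. With 1 list per group no test was run, and the functions were tested on simulated lists with known answers. The region set, the gene lists and the naming rule were chosen with earlier results of these data known.

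Named regions were the 8 with the highest lower density over a protein-coding start, the 5 longest, the 5 with the most reads, up to 5 with H3K27ac in mdxTLR4-/- alone, the 3 densest and 3 sparsest, up to 3 genes per list by share of the window, Tlr4 and the 8 qPCR genes. One of the densest regions is not reported here. Alternatives were other peak lengths, densities and numbers of peaks, merging distances, coverage, distance to mdxTLR4-/- peaks and its detection limit. Computation used Python 3.11.15, numpy 2.4.6, pandas 2.3.3, scipy 1.17.1, pysam 0.24.0 and matplotlib 3.10.9.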

Additional observations from a re-analysis of the deposited data

How the results depend on the processing

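The number of regions depended on which peaks were kept. It was 2587 as reported and between 1837 and 2931 under the 5 alternatives that moved it by less than 1.5 times, but fell to 1198 with only peaks of at least 1.5 times the 1st percentile of density of their list, and to 1297 with no mdxTLR4-/- peak within 5 kb. The regions themselves changed more than their number: with the same number of peaks per list, the densest first, 2746 regions were found, which overlapped 1256 (48.6%) of the reported ones, and with the density minimum 321 (12.4%) of the reported regions were found again. A region over the start of Lta, Lamb2, Sybu and Cdh24 was found under all 7 of these alternatives, and over Ltb, Npy5r and Col4a4 under 6, all but the minimum peak length of 2 kb. Irgc1 and Sytl1 kept one under 5, Irgc1 losing it with peaks of at least 2 kb and with WT and mdx peaks over at least 50% of the region, and Sytl1 with the density minimum and the mdxTLR4-/- detection limit. Npy5r, Irgc1, Sybu, Col4a4, Ltb and Cdh24 had been named for their high density, and several of these alternatives filter on density. Their being kept was thus partly fixed by that choice and is no test of these regions.

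The share over a gene start, 11.0%, was 14.0% with peaks of at least 2 kb, 16.5% with the density minimum, 13.0% with equal numbers of peaks, 12.4% with no mdxTLR4-/- peak within 5 kb, 4.10% for protein-coding genes and 14.3% for a start within 1 kb. The share touched by H3K27ac of mdxTLR4-/-, 0.580%, was 0.0773% (2 regions) with H3K27ac peaks of at least 10 reads. The share with an mdxTLR4-/- peak within 5 kb, 49.9%, was 44.1% with peaks of at least 2 kb, 41.6% with the density minimum, 41.3% with equal numbers of peaks and 46.6% with peaks up to 600 bp apart merged. The share denser in mdx, 85.3%, was 94.0% with equal numbers of peaks and 82.7% with WT and mdx peaks over at least 50% of the region. Under 2 scalings added after seeing the data it was 60.0% with each density divided by the 1st percentile of its own list and reversed to 49.0% when scaled to reads in peaks. The cause of these shifts was not tested.

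No paired analysis was possible because the replicates of each genotype were merged before the peaks were deposited, and leaving out a replicate was not possible for the same reason. The depth of the libraries limits what a missing peak can show, and it is unknown.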

Other observations

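On chromosome X, which the definition of the regions left out, 10 of 263 merged H3K27me3 regions had peaks of WT and mdx and none of mdxTLR4-/-.

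Runs of 4 or 5 regions in a row without an mdxTLR4-/- peak, after the run over Abat, were few. One run of 5 spanned 459.8 kb around Lnpk (chr2:74128801-74588600), the gene next to the Hoxd cluster that encodes an endoplasmic reticulum junction protein. There were 11 runs of 4, among them a run over Tspan11 and Tspan9 (chr6:127915201-127963800, 48.6 kb), one over Tln2, which encodes a talin (chr9:67337201-67430600, 93.4 kb), and one among the Fbxw genes of chromosome 9 (chr9:109187001-109795200, 608.2 kb), a family of similar copies.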
